A study of Homo sapiens with 5 samples.

Results

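Of the 17311 Fra-1 peaks on chromosomes 1 to 22 and X of LM2 cells, 6823 overlapped an E2F1 peak by at least 1 bp, overlapped no MYC peak, and lay outside every promoter window, the sequence from 2 kb upstream to 2.5 kb downstream of an annotated transcription start site (TSS). These 6823 distal Fra-1 and E2F1 regions were thus selected on the measured peaks of 3 libraries, and their overlap and fold enrichment are given as descriptions without a test. They made up most of the 12744 distal Fra-1 peaks. The other distal Fra-1 peaks were 5512 without E2F1 or MYC, called Fra-1-only peaks here, 396 with both E2F1 and MYC, called MYC-bound regions here, and 13 with MYC but without E2F1. A further 4566 distal E2F1 peaks overlapped neither Fra-1 nor MYC and are called E2F1-only peaks.

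The libraries map the binding of transcription factors (TFs) in MDA-MB-231 LM2 cells, labelled as untreated, a derivative of the triple-negative breast cancer line MDA-MB-231 that metastasizes to the lung. Chromatin was crosslinked with 1% formaldehyde for 15 min and immunoprecipitated with an antibody against each TF, and 1 library per factor was sequenced, so there is no replicate spread. After MACS2 kept 1 tag per position, 12931227 tags remained for Fra-1, 18056168 for E2F1 and 23853621 for MYC, against 10758036 for the input DNA that all 3 factors shared. Intervals are 95% intervals that cover counting error over regions of these libraries, and not the spread between cultures. The label of the Fra-1 library was checked with its motif, the AP-1 site, which lay within 50 bp of 53.3% of all Fra-1 summits. The labels of the E2F1 and MYC libraries were not checked in this way.

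Fra-1, the product of FOSL1, is a Fos family protein that pairs with a Jun protein to form AP-1, a factor that binds the AP-1 site TGACTCA and often acts at enhancers, distal elements that regulate genes from afar. E2F1 is best known for binding the promoters of genes for DNA replication and cell division, whose E2F sites resemble TTTCCCGC. MYC pairs with MAX and binds E-boxes, of which CACGTG is the best known, mostly near start sites.

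The sequences that follow each run 50 bases to either side of a summit on the forward strand of hg19, and they show the kinds of site found at these regions. The first 5 are centered on the Fra-1 summit of the regions with the largest fold enrichment in both libraries, except for the region of DLC1, which is not printed, and AP-1 sites are in capitals on either strand. They lie at chr12:52541219-52541319, chr7:139365711-139365811, chr9:36924180-36924280, chr6:74290205-74290305 and chr10:124254521-124254621, and each is named by the protein-coding gene with the nearest TSS.
KRT80: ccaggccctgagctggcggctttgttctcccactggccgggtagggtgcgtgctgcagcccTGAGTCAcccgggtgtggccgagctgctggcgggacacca
HIPK2: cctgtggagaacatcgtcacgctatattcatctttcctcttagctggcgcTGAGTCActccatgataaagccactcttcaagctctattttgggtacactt
PAX5: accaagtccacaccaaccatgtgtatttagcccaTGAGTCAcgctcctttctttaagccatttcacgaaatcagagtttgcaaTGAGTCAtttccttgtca
EEF1A1: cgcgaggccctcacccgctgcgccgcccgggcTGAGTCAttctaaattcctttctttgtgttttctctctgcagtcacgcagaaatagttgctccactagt
HTRA1: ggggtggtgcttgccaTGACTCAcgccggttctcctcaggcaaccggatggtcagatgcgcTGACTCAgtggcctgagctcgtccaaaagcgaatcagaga
All 5 hold at least 1 AP-1 site, and PAX5 and HTRA1 hold 2.

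E2F sites were rare, and the next 3 sequences show them in capitals at the strongest regions with an E2F site near the E2F1 summit. They lie at chr3:171847878-171847978, chr11:33393128-33393228 and chr1:98552590-98552690. The first pair is centered on the Fra-1 summit and that of DPYD on the E2F1 summit, since its E2F site lies outside the window of the Fra-1 summit.
FNDC3B: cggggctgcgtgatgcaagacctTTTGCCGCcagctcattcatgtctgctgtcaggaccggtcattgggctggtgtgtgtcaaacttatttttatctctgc
KIAA1549L: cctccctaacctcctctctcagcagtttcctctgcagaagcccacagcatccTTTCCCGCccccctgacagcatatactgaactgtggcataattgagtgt
DPYD: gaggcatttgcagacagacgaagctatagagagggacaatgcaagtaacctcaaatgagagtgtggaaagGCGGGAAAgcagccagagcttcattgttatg
None of these 3 windows holds an AP-1 site.

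The last sequences, at chr7:73130057-73130157 and chr1:203482055-203482155, are from the strongest regions without an AP-1 site near the Fra-1 summit after that of DLC1. They have no capitals because neither an AP-1 nor an E2F site was found in them.
STX1A: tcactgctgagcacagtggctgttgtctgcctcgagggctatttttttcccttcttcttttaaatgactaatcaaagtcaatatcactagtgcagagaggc
OPTC: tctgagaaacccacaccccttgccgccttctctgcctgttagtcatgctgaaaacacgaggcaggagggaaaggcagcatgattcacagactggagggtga
They do hold sequences that differ from the AP-1 site by 1 letter, TGACTAA at STX1A and TGATTCA and TTAGTCA at OPTC.

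Both factors were well above background at the 6823 regions, and Fra-1 usually more so than E2F1. Fold enrichment divides the number of fragments stacked at a summit by the local background from the input. For Fra-1 the median was 9.52 (95% interval of the median 9.35 to 9.65), and single regions ranged from 2.65 to 57.5. For E2F1 the median was 7.10 (7.05 to 7.23), with a range from 2.20 to 70.2. The E2F1 value was the larger in 1816 regions (26.6%, 95% Wilson interval 25.6 to 27.7%). Fold enrichments of the 2 libraries rose together only loosely, with a Spearman correlation of 0.37 over the 6823 regions. They are compared with the same input, and their local backgrounds, which had a correlation of 0.84, are not independent.

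**Figure D1:**
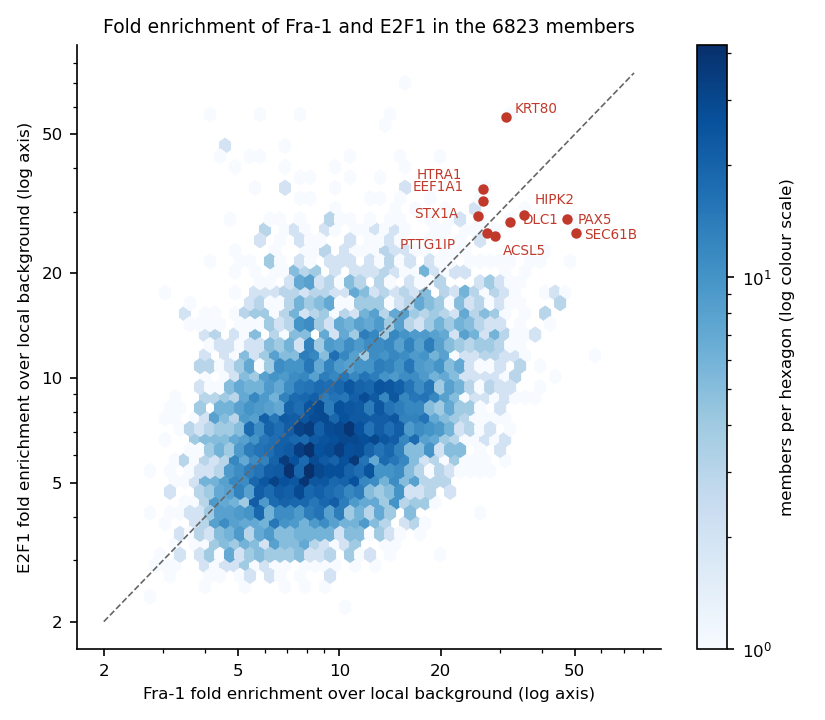
Fold enrichment of Fra-1 (x axis) and of E2F1 (y axis) over the local background in each of the 6823 regions, called members in the plots, on log axes, with color for the number of regions in a hexagon and a dashed line where both are equal. The 10 regions with the largest smaller value are red and carry the name of the nearest protein-coding gene, and most regions sit below the line.

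The strongest region by the smaller of both fold enrichments lay between genes, 38.3 kb from the TSS of KRT80, a type II keratin. There Fra-1 had a fold enrichment of 31.3 and E2F1 of 55.9, and the summits were 241 bp apart. The region in an intron of HIPK2, a nuclear serine/threonine kinase, had 35.4 for Fra-1 and 29.4 for E2F1. In an intron of PAX5, a TF of the B cell lineage, the values were 47.5 and 28.5, and both summits fell on the same base. These 3 regions thus differed in which factor was stronger and in how far apart the summits were. The region nearest to SEC61B, a subunit of the translocon of the endoplasmic reticulum, lay 211 kb from its TSS and had a Fra-1 value of 50.5, the largest of the 10, with 26.1 for E2F1. For HTRA1, a secreted serine protease, Fra-1 had 26.7 and E2F1 34.8 in an intron 11.6 kb from a TSS.
For EEF1A1, a translation elongation factor, the values were 26.8 and 32.2 at 54.9 kb. The other 4 regions lay in introns of DLC1, of PTTG1IP, of STX1A, a syntaxin of membrane fusion, and of ACSL5, a long-chain acyl-CoA synthetase. Their Fra-1 values were between 25.9 and 32.2 and their E2F1 values between 25.5 and 29.1. Of the 10 regions, 7 lay in the body of the gene whose TSS was nearest.

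Since Fra-1 peaks with larger fold enrichment were more often shared with E2F1, the regions were not an even sample of the distal Fra-1 peaks. Among distal Fra-1 peaks without MYC, 36.1% (33.6 to 38.8%) overlapped E2F1 in the decile with the lowest Fra-1 fold enrichment, and 88.0% (86.0 to 89.7%) in the highest decile. By Fra-1 peak width, the share rose from 25.3 to 93.8%, although a wide peak also has more sequence in which to overlap. Fra-1-only peaks had a median fold enrichment of 7.14 and a median width of 151 bp, against 208 bp for the regions. The share also rose with the G and C content of the window at the summit, from 33.5% (31.2 to 35.9%) to 75.5% (73.0 to 77.9%). By distance from the nearest protein-coding TSS, it was 58.2% (55.4 to 60.9%) in the nearest decile, between 55.8 and 61.1% in the next 5, and 44.6% (41.8 to 47.4%) in the farthest. Across chromosomes, it was lowest on chromosome X at 41.0% (35.0 to 47.2%) and highest on chromosome 19 at 69.9% (63.1 to 76.0%).

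**Figure D2:**
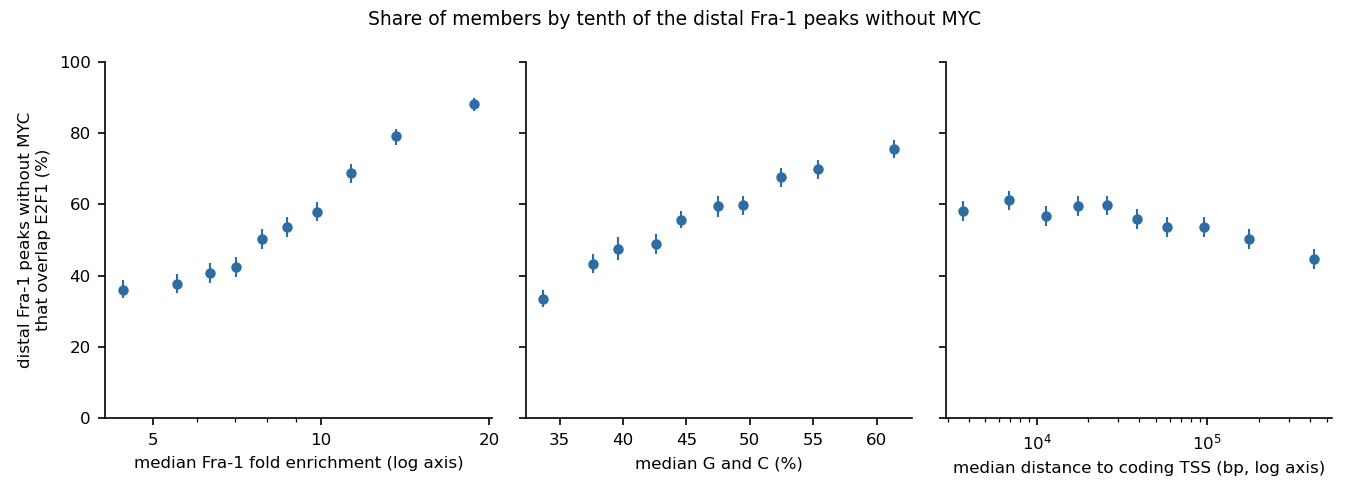
Share of distal Fra-1 peaks without MYC that overlapped E2F1 (y axis, percent) in deciles of these peaks by Fra-1 fold enrichment, by G and C content and by distance to the nearest protein-coding TSS (x axes, median of each decile). Points are shares and bars 95% Wilson intervals, and the share rises from 36.1 to 88.0% with fold enrichment and from 33.5 to 75.5% with G and C.

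Regions near the limits of the rule can be set beside the peaks just outside it. The overlap with E2F1 was under 20 bp in 13 regions, whose median Fra-1 fold enrichment was 5.87, while 37 Fra-1-only peaks within 100 bp of an E2F1 peak had a median of 6.52. The 243 regions within 500 bp of a promoter window had medians of 9.65 for Fra-1 and 8.06 for E2F1. Of the 2823 promoter peaks of both factors without MYC, 1169 lay within 500 bp of an edge of some window and had 8.99 and 8.84. Windows of different start sites overlap, so such an edge can lie deep inside another window. Not all of these peaks were thus at the promoter limit. In most regions the overlap was far above the limit of 1 bp, with a median of 175 bp, and it covered the whole Fra-1 peak in 2586 of them.

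The absence of a MYC peak means only that no peak passed the threshold, and MYC had the fewest peaks of the 3 factors (4857). A MYC summit lay within 1 kb of 82 regions and within 10 kb of 454 (6.65%). The median distance to a MYC summit was 264193 bp, shorter than the 456076 bp of Fra-1-only peaks. Where MYC was present, both other factors had larger fold enrichments. MYC-bound regions had a median Fra-1 fold enrichment of 13.6 and a median E2F1 fold enrichment of 13.9. The median number of Fra-1 fragments at the summit differed less, at 32 (29 to 34) against 28 in the regions. The median local background there was lower, at 2.00 against 2.94. For E2F1 the median numbers of fragments were 32 and 20.

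The summits of Fra-1 and E2F1 lay close together, at a median distance of 28 bp. The rule required the peaks to overlap, which in part sets how far apart their summits can lie, so summit distances are given as a description. In 4792 of the 6823 regions (70.2%) the summits were within 50 bp. With the 3 lists cut to equal numbers of peaks, 29.7% of the 64 regions left had them within 50 bp. The E2F1 summit fell inside the Fra-1 peak in 6086 regions (89.2%). In MYC-bound regions, whose E2F1 peaks were wider (a median of 450 bp against 243 bp), 59.8% had summits within 50 bp. The region with the greatest distance, 3273 bp, was nearest to CCN1, which encodes a secreted matrix protein and is a target gene of YAP. It had an E2F1 fold enrichment of 45.3 against 4.70 for Fra-1. Its Fra-1 summit lay 2.83 kb from the TSS, so the E2F1 value was measured far from it and need not describe the distal region. The rule was applied to Fra-1 peaks alone. Of the 6727 distinct E2F1 peaks of the regions, 36 also overlapped a promoter window and 40 a MYC peak.

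The AP-1 site was the most frequent of the sites searched, and it lay at both summits. Within 50 bp of the Fra-1 summit, 3505 of the 6823 regions (51.4%, 50.2 to 52.6%) held TGACTCA on either strand, against 1.86% (1.65 to 2.10%) of windows 2 kb to either side. Of these, 384 had 2 sites and 14 had 3 or more. Fra-1 fold enrichment rose with the number of sites, from a median of 8.51 without a site to 14.6 with 2 sites and 20.6 with 3 or more. For E2F1 the medians without a site, with 1, with 2 and with 3 or more were 7.11, 7.09, 7.15 and 9.58, so that only the 14 regions with 3 or more sites stood above the others. A similar pattern was seen when the regions were divided by strength. From the lowest to the highest quintile of Fra-1 fold enrichment, the share with an AP-1 site at the Fra-1 summit rose from 37.2% (34.7 to 39.8%) to 67.4% (64.8 to 69.8%). Over quintiles of E2F1 fold enrichment it stayed between 50.5 and 52.3%. At the E2F1 summit, the share was 40.4% (37.8 to 43.0%) in the lowest of these quintiles and 34.7% (32.2 to 37.3%) in the highest.

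Sites gathered more tightly around the Fra-1 than around the E2F1 summit. Where a site lay within 150 bp of the Fra-1 summit (4198 regions), the nearest was at a median distance of 20 bp. Where one lay within 150 bp of the E2F1 summit (4048 regions), the median was 32 bp. In 10-bp bins, AP-1 sites were densest just beside the Fra-1 summit, at 9.32 per 100 regions. Around the E2F1 summit of the same regions, the densest bin held 5.80 per 100 regions and the curve was flatter. When the summits were at most 10 bp apart, 52.0% of regions had the AP-1 site near the E2F1 summit. When they were more than 100 and up to 200 bp apart, 6.30% did, while 42.9% had it near the Fra-1 summit. In the 273 regions with summits over 200 bp apart, these shares were 16.1 and 40.7%.

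**Figure D3:**
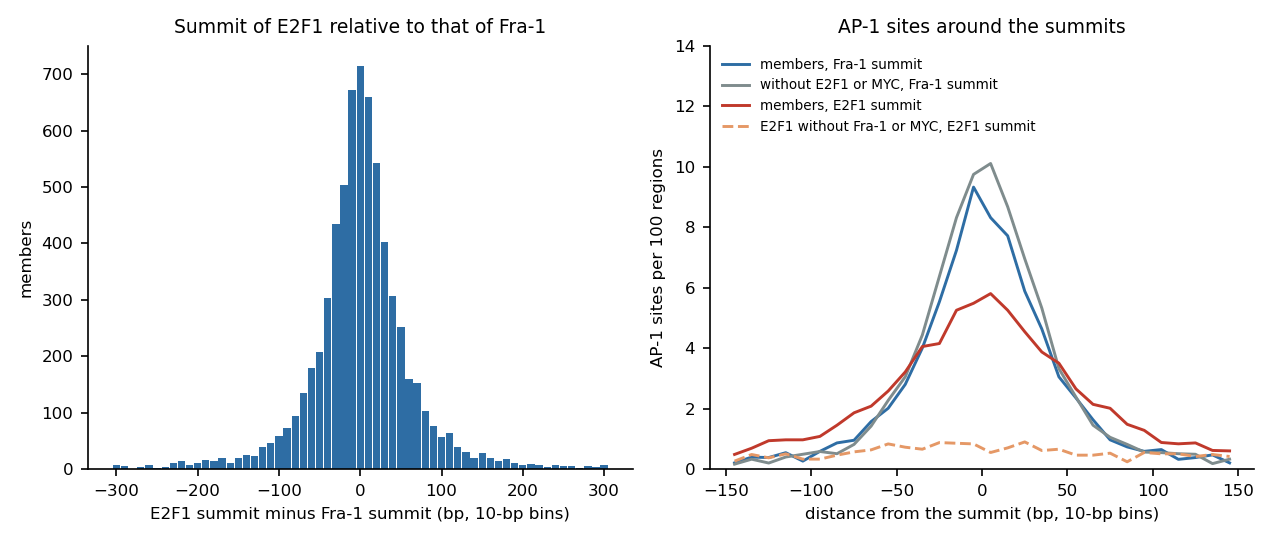
Left, number of regions (y axis) by position of the E2F1 summit relative to the Fra-1 summit (x axis, bp, 10-bp bins). Right, AP-1 sites per 100 regions (y axis) by distance from the summit (x axis, bp) for the regions at the Fra-1 summit (blue) and at the E2F1 summit (red), for Fra-1-only peaks (gray) and for E2F1-only peaks (dashed). Blue reaches 9.32 and red 5.80 per 100 regions. The dashed line rises only slightly around the summit, to at most 0.898, from 0.263 and 0.416 in the outermost bins.

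The E2F1 peaks of the regions held AP-1 sites more often than E2F1-only peaks. One group was required to overlap a Fra-1 peak and the other to overlap none, so the difference in AP-1 sites follows that choice and is given as a description. The regions overlapped 6727 distinct E2F1 peaks, of which 2647 (39.3%) held an AP-1 site within 50 bp of the E2F1 summit. Among E2F1-only peaks, 324 of 4566 (7.10%) did, a difference of 32.3 percentage points. For the other motifs, differences have Newcombe intervals, widened by Bonferroni for the 48 differences compared, 16 motifs in 3 comparisons. The groups differ by the same choice, so these differences are descriptions too, and their intervals cover counting error only. TEAD and RUNX sites were also more frequent, with 13.4 against 9.33% for CATTCC and 12.6 against 8.78% for TGTGGT, and their widened intervals of 2.10 to 6.03 and 1.91 to 5.74 points did not include 0. FOX sites, at 3.37 against 1.69%, and C/EBP sites, at 6.23 against 4.29%, also had widened intervals above 0, with lower bounds of 0.697 and 0.519 points. So did the AP-1 letters in reversed order, at 4.28 against 1.88% (1.32 to 3.44 points), but they share letters with the extended site TGACTCAGT. GC boxes (GGGCGG) went the other way, at 3.40 against 8.98%. Over all E2F1 windows the shares were 12.2% (AP-1), 7.71% (TEAD), 6.86% (RUNX) and 14.7% (GC box). The median G and C content at the summit was 47.5% for the E2F1 peaks of the regions and 53.5% for E2F1-only peaks. For motifs other than AP-1, this comparison was not repeated within quintiles of G and C content.

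The E2F site was nearly absent. Of the 6823 regions, 27 (0.396%, 0.272 to 0.575%) held at least 1 of TTTCCCGC, TTTGGCGC, TTTCGCGC and TTTGCCGC within 50 bp of the E2F1 summit on either strand. The same letters read backwards, which have the same base composition, were found in 10 regions (0.147%, 0.0796 to 0.270%). Among E2F1-only peaks the E2F site was more frequent, at 1.36% (1.06 to 1.74%), and so was its reverse, at 0.745%. Over all E2F1 peaks, those at promoters included, the E2F site was at 1.68% and its reverse at 0.962%. The difference between the E2F1 peaks of the regions and E2F1-only peaks was -0.971 percentage points, with a widened interval of -1.68 to -0.401. The few regions with an E2F site had stronger E2F1 peaks, with a median fold enrichment of 13.9 against 7.09 without.
By quintile of E2F1 fold enrichment, the share with an E2F site was 0.146 to 0.293% in the lower 4 and 1.25% in the highest. GC boxes at the E2F1 summit rose along the same quintiles, from 1.32 to 7.18%, as did the median G and C content at the Fra-1 summit, from 43.6 to 51.5%.

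The 5 strongest regions with an E2F site were nearest to FNDC3B, KIAA1549L, DPYD, NT5M and SPC24. The FNDC3B region, in an intron 3.16 kb from a TSS, had fold enrichments of 18.9 for Fra-1 and 16.1 for E2F1. That of KIAA1549L had 14.2 and 21.9, and that of DPYD, an enzyme that degrades pyrimidines, 13.8 and 19.6. In the region nearest to NT5M, a mitochondrial nucleotidase, E2F1 reached 53.0 and Fra-1 13.6, and the summits were 112 bp apart. The SPC24 region, in an intron of this kinetochore gene, had 14.3 for Fra-1 and 13.4 for E2F1, with summits 569 bp apart. The last pair held an AP-1 site near the Fra-1 summit, and the first 3 did not.

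Fra-1-only peaks held the AP-1 site more often than the regions did, although they were weaker. The site lay at 3186 of 5512 Fra-1-only summits (57.8%, 56.5 to 59.1%), a difference of -6.43 percentage points (-8.19 to -4.67; widened interval -9.37 to -3.47). Within quintiles of Fra-1 fold enrichment the difference grew to -12.7 points (-14.5 to -10.8). In the lowest quintile, 35.5% of the regions and 50.7% of Fra-1-only peaks held the site, and in the highest quintile 64.7 and 74.8%. Within quintiles of G and C content, a comparison added after seeing the data, the difference was -9.52 points (-11.3 to -7.70). With equal numbers of peaks the difference was -1.71 points (-14.1 to 9.24) and its interval included 0. MYC-bound regions held the AP-1 site in 48.2% (43.4 to 53.1%), and their difference from the regions could not be told from 0 (3.14 points, -1.92 to 8.16).

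Where no AP-1 site was present, related sequences often were. Of the 3318 regions without TGACTCA near the Fra-1 summit, 2208 (66.5%) held a sequence that differed from it by 1 letter, against 27.8% of side windows. The most frequent were TGAATCA in 20.5%, TGACTAA in 15.5% and TGAGTAA in 11.1% of these regions, against 1.76, 0.904 and 1.32% of side windows. Fra-1-only peaks without the site held TGAATCA in 26.7% and TGACTAA in 20.8%. The bases beside the AP-1 site differed as well. Of the sites nearest to the summit, ATGACTCAT made up 385 of 3505 in the regions (9.99 to 12.1%), 18.5% (17.2 to 19.9%) in Fra-1-only peaks and 7.33% (4.42 to 11.9%) in MYC-bound regions. CTGACTCAG made up 6.02% (5.28 to 6.86%) in the regions and 3.58% (2.99 to 4.28%) in Fra-1-only peaks.
The CRE, TGACGTCA, which contains no AP-1 site, lay at 0.249% of Fra-1 summits of the regions and 0.181% of Fra-1-only summits, and at 0.393% of all Fra-1 summits.

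Several other motifs differed between the regions and Fra-1-only peaks. TEAD sites lay at 14.2% (13.4 to 15.0%) of the regions and 10.3% of Fra-1-only peaks, against 5.61% of side windows, a difference of 3.86 points with a widened interval of 1.92 to 5.78. ETS sites, CAGGAAGT or CCGGAAGT, lay at 3.28 and 1.96% (0.368 to 2.27 points), and GC boxes at 3.22 and 1.09%, a difference of 2.14 points (1.63 to 2.64; the widened interval began at 1.29). GATA sites, AGATAA, were less frequent, at 3.84 and 5.35% (-2.80 to -0.275 points), and both shares were below that of side windows (887 of 13646, 6.10 to 6.93%). Over all Fra-1 windows TEAD sites lay at 12.6%, ETS sites at 3.03%, GC boxes at 4.04% and GATA sites at 4.06%. In MYC-bound regions TEAD, ETS and GATA sites lay at 17.2% (13.8 to 21.2%), 4.55% (2.89 to 7.07%) and 2.27% (1.20 to 4.26%). Their widened intervals against the regions included 0, so these shares did not set the regions apart from MYC-bound regions. The regions were richer in G and C, with a median of 47.5% against 42.6%, and 69.7% of their windows held a CpG against 55.9%. Within quintiles of G and C content, again added after seeing the data, the differences were 4.08 points for TEAD (2.88 to 5.25), 1.20 for ETS (0.592 to 1.78) and 1.24 for GC boxes (0.658 to 1.77). That of GATA was -0.517 points, with an interval from -1.30 to 0.224 that includes 0. RUNX, FOX (GTAAACA), C/EBP (TTGCNNAA) and NF-kB (GGGNNTTCC) sites lay at 12.4, 3.28, 6.54 and 1.61% of the regions, and their widened intervals against Fra-1-only peaks included 0. The shares over all Fra-1 windows were 11.2, 2.98, 6.56 and 1.62%. The NFI palindrome was found in 1 region and in 3 of all Fra-1 windows. A control sequence differed as well. The E-box read backwards, GTGCAC, lay at 1.85 and 1.07%, with a widened interval of 0.0499 to 1.49 points. Within quintiles of G and C content its difference was 0.544 points (0.0586 to 0.986). Small differences between these groups therefore need not be specific to a motif. Reversed AP-1, ACTCAGT, shares letters with the extended site TGACTCAGT and is no independent control.

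The E-box was rare in the regions and more frequent where MYC was bound. CACGTG lay within 50 bp of the Fra-1 summit in 66 regions (0.967%, 0.761 to 1.23%), no more often than in their side windows (1.14%, 0.971 to 1.33%). In MYC-bound regions it was found in 39 of 396 (9.85%, 7.29 to 13.2%). One group was required to overlap a MYC peak and the other to overlap none. The difference in E-boxes follows that choice and is given as a description, 8.88 points for MYC-bound minus the regions. Fra-1-only peaks had 1.11%, and all Fra-1 windows 1.55%. MYC-bound regions also had more GC boxes (7.07%), a CpG in 91.9% of windows and a median G and C content of 57.4%.

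**Figure D4:**
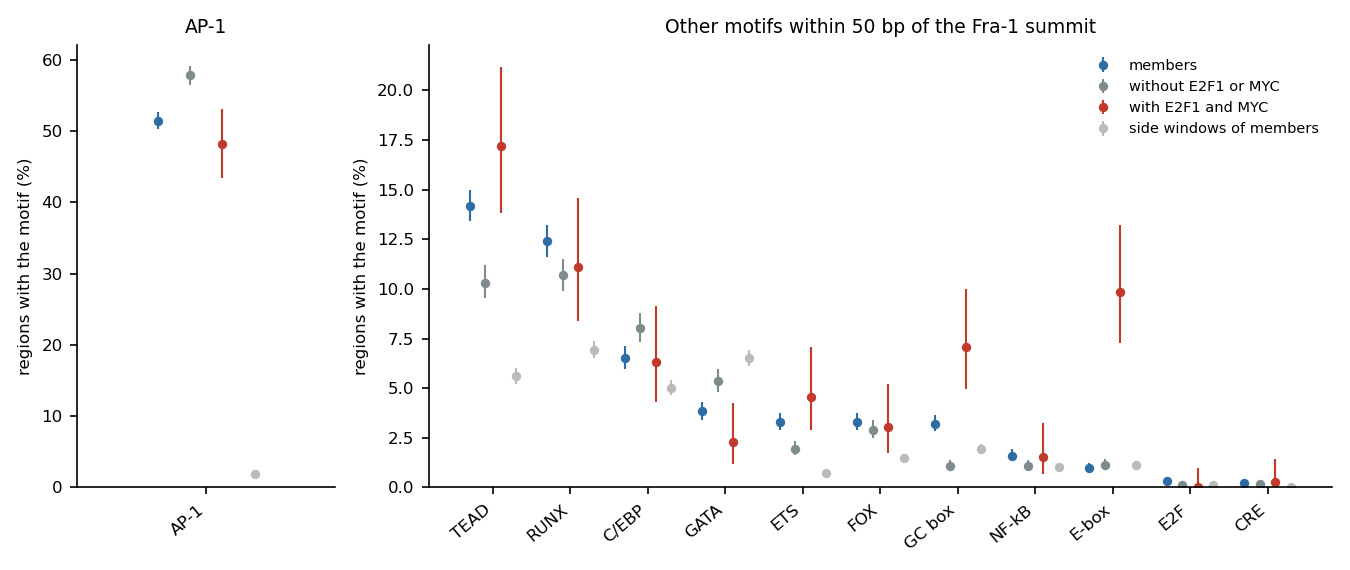
Share of regions (y axis, percent) with each motif (x axis) within 50 bp of the Fra-1 summit, for the 6823 regions (blue), Fra-1-only peaks (dark gray), MYC-bound regions (red) and windows 2 kb to either side of the regions (light gray). Bars are 95% Wilson intervals; AP-1 stands at 51.4% of the regions on its own scale, and the E-box at 0.967% against 9.85% of MYC-bound regions.

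Most regions lay in introns, and the rule itself kept them out of the promoter windows. Introns held 4107 summits (60.2%, 59.0 to 61.3%) and exons 270 (3.96%, 3.52 to 4.45%), while 2446 (35.8%) lay outside annotated genes. These genes include non-coding ones, and 3371 summits (49.4%) lay in a protein-coding gene. Fra-1-only peaks had 60.8% in introns, and the difference of -0.565 points had an interval from -2.30 to 1.17. The median distance to the nearest annotated TSS of any kind was 12925 bp (12458 to 13346). To the nearest protein-coding TSS, the median distance was 28122 bp (26668 to 29247) for the regions. It was 37893 bp for Fra-1-only peaks and 15653 bp for MYC-bound regions. Within 10 kb of a protein-coding TSS were 23.8% of the regions, 20.6% of Fra-1-only peaks and 40.4% of MYC-bound regions. The regions differed from both, by 3.23 points (1.75 to 4.69) and by -16.6 points (-21.6 to -11.8).

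The regions were spread over many stretches. With neighboring summits up to 12.5 kb apart joined, they formed 5561 stretches, and 4594 regions (67.3%) stood alone. In stretches of 3 or more were 719 regions (10.5%). The longest held 7 regions over 39.5 kb near VXN and MYBL1, with Fra-1 fold enrichments from 5.91 to 12.0 and E2F1 fold enrichments from 6.80 to 26.5. Stretches of 6 regions lay nearest to ERRFI1, an inhibitor of EGFR that acts in negative feedback, in introns of MICAL2, an enzyme that oxidizes actin, and between genes near CD93, a C-type lectin-like receptor. In the stretch nearest to ERRFI1, 5 of the 6 regions held an AP-1 site, and Fra-1 values ran from 6.05 to 16.5 and E2F1 values from 6.63 to 17.1. That of MICAL2 held the strongest Fra-1 value of these stretches, 35.1, and 3 of its 6 regions held the site.

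When each region was assigned to the protein-coding gene with the nearest TSS, 3486 of 20090 genes (17.4%) had at least 1. Genes with 5 or more numbered 245, and their 1666 regions made up 24.4% of the total. A gene with no near neighbor collects more regions, so these numbers also depend on the spacing of genes. SOX9, a TF of progenitor cells, had the most, 19 regions between 15.9 and 932 kb from its TSS, with Fra-1 fold enrichments from 3.69 to 27.2 and E2F1 fold enrichments from 3.82 to 12.5. MYC itself had 18 regions, between 4.12 and 818 kb from its TSS, with Fra-1 values from 4.20 to 22.9 and E2F1 values from 4.12 to 15.8. Here 8 regions held an AP-1 site. Another 10 Fra-1-only peaks and 1 MYC-bound region were also nearest to MYC. KLF6, a zinc finger TF, likewise had 18 regions, with a Fra-1 median of 10.3 and an E2F1 median of 6.52.
ZMIZ1, a coregulator of TFs, had 16 regions, 10 of them in its body, and 5 MYC-bound regions besides. All 15 regions of KCNMA1, the pore-forming subunit of a potassium channel, lay in its body, and the strongest had 36.8 for Fra-1 and 22.1 for E2F1. DUSP4, a phosphatase that inactivates MAP kinases, had 13 regions and no Fra-1-only peak, and its E2F1 values reached 55.7. AKR1E2, an aldo-keto reductase, also had 13 regions without a Fra-1-only peak, and PRKCH, a protein kinase C, ERRFI1 and IRS1, an adaptor of the insulin receptor, had 12 each, as did NFATC2 and RUNX1, both TFs.

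Genes with at least 1 region also had Fra-1 and E2F1 at their promoters more often, and MYC less often. The lower share for MYC was not seen among genes with 5 or more regions. Of the 3486 genes with at least 1 region, 24.9% (23.5 to 26.4%) had a Fra-1 promoter peak, 69.9% (68.3 to 71.4%) an E2F1 and 15.6% (14.4 to 16.8%) a MYC promoter peak. The 16604 genes without a region had 10.8, 59.5 and 18.3% (17.7 to 18.9% for MYC). A Fra-1 promoter peak was found for 37.1% (31.3 to 43.3%) of the 245 genes with 5 or more regions and for 13.3% (12.8 to 13.7%) of all protein-coding genes. An E2F1 promoter peak was found for 82.4% (77.2 to 86.7%) of the 245 genes, against 61.3% (60.6 to 62.0%) of all. The MYC shares were 18.8% (14.4 to 24.1%) and 17.8% (17.3 to 18.4%). The number of start sites of a gene adds to its promoter windows, and its part was not tested.

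The lists of genes that follow were chosen with results of these data known, so their counts are set beside the share of 17.4% over all genes and were not tested. Lists of adhesion, migration and growth factor signaling had larger shares. Fra-1-only peaks were nearest to genes of the same lists too, to 7 MAPK feedback, 9 adhesion, 7 EMT and 8 TGF-beta pathway genes. The share of all genes nearest to a Fra-1-only peak was not computed, so these counts cannot be read as high or low. Of the 12 MAPK feedback inhibitors, phosphatases and Sprouty proteins that damp the pathway upstream of AP-1, 10 had a region (83.3%). DUSP4 led with 13, followed by DUSP10 with 8, with a median Fra-1 fold enrichment of 13.1, and SPRY4 with 7, of E2F1 fold enrichment up to 32.7. Of the 24 integrin, laminin and focal adhesion genes, 19 had a region (79.2%). ACTN4, which crosslinks actin, had 7, all in its body, and ITGA3, an integrin subunit, had 4 with E2F1 values from 9.92 to 27.8. By gene body, 15 of the 24 adhesion genes (62.5%) held a region, against 10.1% of all protein-coding genes. Of the MAPK feedback inhibitors, 2 (16.7%) did, so that their regions lay mostly outside the genes. A longer gene body has more sequence to hold a region, and gene length was not taken into account.

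Of 11 EMT factors and cadherins, genes of the epithelial to mesenchymal transition, 8 had a region (72.7%). ZEB2, a repressor of epithelial genes, had 7, between 139 and 1464 kb away, and TWIST2 had 4, with Fra-1 values from 6.74 to 31.1 and a median E2F1 value of 10.5. CDH2, which encodes N-cadherin, had 4 regions beside 9 Fra-1-only peaks. Of EGFR and its ligands, 5 of 8 had a region (62.5%). EGFR, the receptor, had 7 regions with Fra-1 values of 6.71, 7.53, 11.7, 12.9, 15.0, 15.4 and 49.0, and E2F1 values from 6.95 to 21.1. Its strongest region lay in an intron 23.3 kb from a TSS, with 49.0 for Fra-1 and 21.1 for E2F1. The ligand gene TGFA had 3, and AREG, which encodes amphiregulin, had 2 with Fra-1 values of 12.6 and 18.0.

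Of 13 TGF-beta pathway genes, 8 had a region (61.5%), led by SMAD3, a TF that carries the signal to the nucleus, and TGFB2, a ligand, with 9 each, and SMAD6, an inhibitor, with 6. Among 18 matrix proteases and their inhibitors, 10 had a region (55.6%). ADAM12, a membrane protease, had 7, all in its body, and PLAU, the urokinase, had 5 with Fra-1 values of 7.99, 8.10, 10.1, 19.7 and 33.8 and E2F1 values of 3.38, 2.88, 7.39, 13.7 and 10.7. Both factors were highest at the same pair of PLAU regions. Among 13 genes of YAP, TAZ, TEAD and their targets, 7 had a region (53.8%), led by CCN1 with 6 and CCN2 with 4. AP-1 sites lay at 0 of the 6 CCN1 regions and at 4 of the 4 CCN2 regions. AMOTL2, a scaffold that restrains YAP, had 3.

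Of 10 genes for AP-1 subunits, 5 had a region, and 0 had one in their body. JUN had 4, with Fra-1 values of 5.69, 6.70, 7.79 and 29.5 and E2F1 values of 6.32, 4.25, 12.9 and 18.6, FOSL2 had 3 and FOS had 1. FOSL1, which encodes Fra-1, had none. Of 14 cytokines and chemokines, 6 had a region (42.9%), among them CXCL8 and LIF with 3 each and IL11 with 1, at 17.6 for Fra-1 and 15.4 for E2F1. The 31-gene Fra-1 signature of the study had 11 genes with a Fra-1-only peak, again without a share over all genes beside it. The signature had 8 genes with a region (25.8%), closer to the share of all genes. It was derived in part from these cells and is not independent of them. PHLDA1 had 9, ADORA2B, an adenosine receptor, had 3 with Fra-1 values of 9.89, 17.4 and 17.7, all with an AP-1 site, and PTGES, a prostaglandin E synthase, had 3. 
The remaining lists lay near or below 17.4%. Luminal breast identity genes had 3 of 14 (21.4%), GATA3 with 6 regions, and SPDEF and AGR2 with 1 each. Cytosolic ribosomal proteins had 3 of 20 (15.0%), RPS24, RPS12 and RPL3. S100 genes had 2 of 14 (14.3%), S100A10 and S100A7, and DNA replication genes, which hold many known targets of E2F1, had 3 of 24 (12.5%), RFC3, POLA2 and CDC6.

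**Figure D5:**
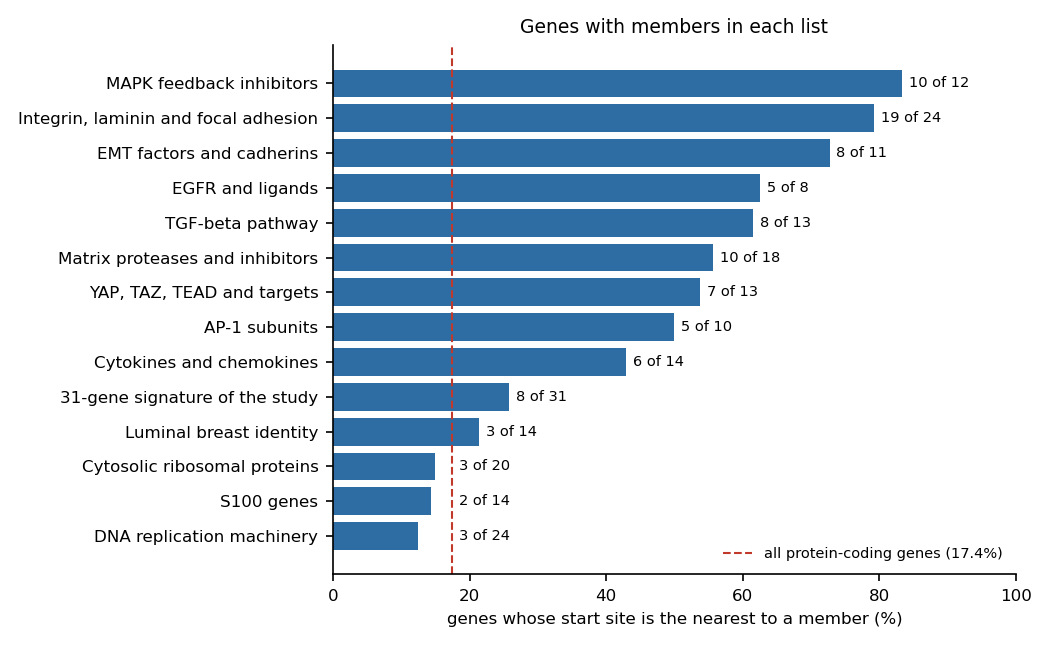
Share of the genes of each list whose TSS is the nearest protein-coding one to at least 1 of the 6823 regions (x axis, percent), with the number of genes beside each bar and a dashed line at 17.4% for all protein-coding genes. MAPK feedback inhibitors reach 83.3% and DNA replication genes 12.5%.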

How the data were processed

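One peak list each of Fra-1, MYC and E2F1 was used, and the other libraries of the series were not analysed here. Per the submitters' processing notes and the study's methods, the authors trimmed their reads (Trimmomatic 0.27), aligned them uniquely to a masked hg19 genome (Bowtie 0.12.5), dropped duplicates, and called peaks against the shared input with MACS2 2.0.10, keeping those under a q-value of 0.01. The deposited signal is the fragment pileup at the summit. The deposited fold enrichment is the ratio of that pileup to the local background with a pseudocount of 1, and the deposited p- and q-values are −log10 values. Libraries differ in depth, so fold enrichments are only roughly comparable between factors.

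The regions and the gene lists were chosen with earlier results of these data known. Coordinates are 1-based, and no peak ended past its chromosome in the GRCh37 sequence. Genes and start sites came from GENCODE 44 mapped to GRCh37. Exons took precedence over introns. Each region was paired with the E2F1 peak of the longest overlap, and 36 regions overlapped 2 or more. Motifs were searched whole, on both strands, within 50 bp of a summit. Shares have Wilson intervals, differences of shares Newcombe intervals and medians order-statistic intervals. Neighboring regions are not independent, so these intervals may be too narrow. In the comparisons within quintiles, the differences of all quintiles were averaged with equal weight. Genes named are those nearest to the 10 strongest regions by the smaller fold enrichment and to the 5 strongest with an E2F site, the 10 genes with the most regions, and up to 3 genes a list with the most regions. Some genes that this rule names are not reported here. NFATC2 and RUNX1, which tie with the last of the 10, CD93, MICAL2, MYBL1, VXN, FOSL1 and OPTC were named after their values were seen. The scripts recovered planted peaks, planted sites and interval coverage when tested on simulated data. The tools were Python 3.11.15 with pysam 0.24.0, scipy 1.17.1, pandas 2.3.3 and numpy 2.4.6.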

Additional observations from a re-analysis of the deposited data

How the results depend on the processing

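The alternatives were a minimum of 5 for the −log10 q-value, a minimum of 5 for fold enrichment, an overlap of at least 50% of the Fra-1 peak, no MYC peak within 1 kb, another promoter window, protein-coding start sites alone, windows of 100 bp, quintiles of fold enrichment, equal numbers of peaks and, added after seeing the data, quintiles of G and C content. The differences recomputed under these were the AP-1 and E-box differences at the Fra-1 summit and the AP-1 difference at the E2F1 summit, and none of the 3 reversed; the other differences were not recomputed, except for motifs within quintiles. With each list cut by q-value to the 4857 peaks of MYC, 64 regions remained, near 58 genes; 62.5% had an AP-1 and 3.12% an E2F site, 29.7% had summits within 50 bp and 46.9% lay in introns. The AP-1 difference from Fra-1-only peaks was then -1.71 points (-14.1 to 9.24), so it could not be told from 0. The E-box difference, given as a description, was 4.69 points, and its interval included 0 (-3.45 to 18.6). Windows of 100 bp gave 59.7% with an AP-1 and 0.645% with an E2F site, and summits within 100 bp made up 88.3%. By gene body instead of nearest TSS, 2036 genes held a region. Under the other alternatives the number of regions was between 5352 and 7734. No paired analysis was possible because each factor had 1 library. A MYC peak below the threshold was not detectable, and that MYC had the fewest peaks limits what its absence says.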
